A study of Chlamydomonas reinhardtii with 42 samples.

Results

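The genes described here were the 100 genes of Chlamydomonas reinhardtii, a unicellular green alga, whose transcripts were lowest with acetate relative to no acetate at every sampled time. They were taken from 13886 genes that passed a filter on low counts, of 17741 genes counted. Read counts were scaled by the TMM method and expressed as log2 CPM (CPM being counts scaled to a common library total) with a prior count of 2, and the mean of the 3 libraries without acetate was subtracted from the mean of the 3 libraries with acetate at each of 7 times. The score of a gene was the highest of its 7 differences, so that a gene scored low only if it was low with acetate at all times, and the 100 lowest scores, between -3.13 and -1.34, made the set. The acetate differences therefore chose the members and are given as a description, without a test. Comparisons of high light (HL) with low light (LL), and of late with early LL, were made within 1 medium. These were tested, and used the same libraries as the choice of members but not its contrasts. The response to HL with acetate minus that in HSM is, however, the difference of 2 of the 7 acetate differences. How the responses differ between the media is therefore not independent of the choice.

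Chlamydomonas can grow on CO2 and light alone or can take up acetate as a second carbon source, which it converts to acetyl-CoA and feeds into the glyoxylate and tricarboxylic acid cycles. When CO2 is scarce, and in HL, the alga induces a CO2-concentrating mechanism (CCM), in which transporters and carbonic anhydrases bring inorganic carbon to Rubisco in the pyrenoid. LCR1 is a Myb-type transcription factor (TF) known to act in the induction of low-CO2 genes in this alga, and acetate is known to repress CCM genes.

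The 42 libraries were of the wild-type strain CC-125, in 14 conditions of 3 libraries each. In the acetate groups, cells in the minimal medium HSM received 20 mM acetate and were sampled in LL of 5 µmol photons m-2 s-1 after 15, 240 and 1440 min. Parts of these cultures were moved to HL of 300 µmol photons m-2 s-1 at 240 min (day 1) or 1440 min (day 2). They were sampled 15 and 60 min later, that is at 255, 300, 1455 and 1500 min. The HSM groups had the same light and times without acetate. All cells, those of the HSM groups included, had been grown with acetate in TAP medium before they were moved to HSM and kept there in LL, so that the control cells had also met acetate earlier.

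The study's methods call the replicates of its RNA-seq data biological, while the labels do not say whether the 3 libraries of a condition came from separate cultures, and the p-values below measure the spread between these libraries only. The libraries held 19232757 to 34098899 counts. The members took 0.0286 to 0.217% of the counts in acetate libraries and 0.222 to 0.671% in HSM libraries. In HSM in LL at 1440 min, replicate 2 stood apart, with 76.3% of its counts in its 100 most abundant genes, where the median library had 53.2%. In HSM in LL at 240 min, replicate 1 lay more than 3-fold below both other replicates for 8 of the 99 members that averaged at least 10 counts there. Without that library, 96 of the 100 members were chosen again, and without replicate 2 at 1440 min, 92 were. In cultures measured in bulk, fewer cells that express a gene and less RNA per cell cannot be told apart.

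Of the 100 members, only LCR1 carried a gene symbol in the study's lists, where it is Cre09.g399552, and 3 were listed as TFs: LCR1, Cre14.g631750 of the bZIP family and Cre16.g673250 of the SBP family. The study's CCM list held 73 genes, 71 of them tested, and LCR1 was its only member of the set. Its photoprotection list of 55 genes, all tested, had no member. A gene absent from these lists can still take part in either process, which was not checked for the members. The 371 tested TFs of the study's TF list made up 2.67% of the tested genes and 3 of the 100 members. The other members are described by their identifiers, since the annotation used here gave them no symbol or product.

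With acetate, the members were lowest relative to HSM on day 2 and least so after 60 min of HL on day 1. Their median difference, acetate minus HSM in log2 CPM, was -2.26 at 15 min, -2.87 at 240 min, -2.83 at 255 min and -1.90 at 300 min, where the median of all 13886 genes was -0.12, 0.03, 0.05 and -0.08. On day 2 the members' median was -3.23 at 1440 min, -3.54 at 1455 min and -3.15 at 1500 min, beside 0.01, 0.15 and -0.06 over all genes. In linear terms the members' median difference was 3.73-fold at 300 min and 11.65-fold at 1455 min. The time that set the score, the weakest of the 7, was 300 min for 42 members and 15 min for 26, while 240, 255, 1440, 1455 and 1500 min set it for 8, 6, 8, 5 and 5. Among all genes the weakest time was 300 min for 7.66% and 15 min for 25.8%.

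**Figure D1:**
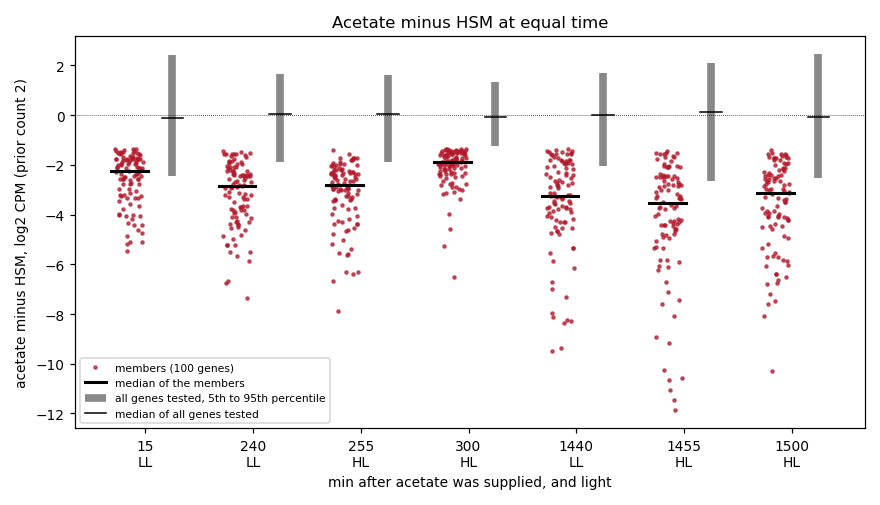
Difference in log2 CPM, acetate minus HSM, at the 7 sampled times in min, for the 100 members, beside the 5th to 95th percentile of all 13886 genes. The members' median lies between -1.90 at 300 min and -3.54 at 1455 min, and no member is above -1.34 at any time because the rule chose them so.

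For the 42 members held back by 300 min, the median difference was -2.60, -3.25, -2.96 and -1.57 at 15, 240, 255 and 300 min, and -3.55, -4.38 and -2.98 at 1440, 1455 and 1500 min. For the 26 members held back by 15 min, it was -1.73 at 15 min, -2.22 at 300 min and -4.02 at 1500 min. At every time, all 3 acetate libraries were below all 3 HSM libraries in 96 of the 100 members, a pattern that 5.88% of all genes showed. The rule used these contrasts, and nothing is read from that count. The exceptions overlapped at 1 time each: Cre12.g555700 at 15 min, Cre03.g204577 at 240 min, Cre08.g358459 at 1440 min and Cre10.g442041 at 1455 min.

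In HSM every member was above the limit of detection, and with acetate many were near it. Averaged over the 7 HSM conditions, the median member stood at 13.6 CPM, with a range of 1.18 to 1084 CPM. Averaged over the 7 acetate conditions, it stood at 1.53 CPM, with a range of 0.0439 to 178 CPM. Per kilobase of gene span, the members' median in HSM was 2.5 CPM per kb, beside 1.49 over all tested genes, and 63 of the 100 members were above the latter value. At 1455 min with acetate, 24 members had at most 3 counts in each of the 3 libraries, and at 1500 min 14 had. At 15, 240, 255, 300 and 1440 min there were 7, 6, 5, 0 and 6 such members, and in HSM there were none at any time. For 68 members no acetate condition was this low.

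The heatmap of the members by condition shows these levels. The median member had 1.90, 1.13, 1.07 and 2.37 CPM with acetate at 15, 240, 255 and 300 min, against 12.5, 11.7, 11.15 and 9.82 CPM in HSM. At 1440, 1455 and 1500 min it had 0.842, 0.423 and 0.611 CPM with acetate, against 10.8, 8.36 and 7.74 CPM in HSM. The acetate level of the median member was thus higher at 300 min than at the other times, whereas its HSM level was lowest on day 2 in HL. The median of all genes stayed between 5.98 and 7.4 CPM in all 14 conditions.

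**Figure D2:**
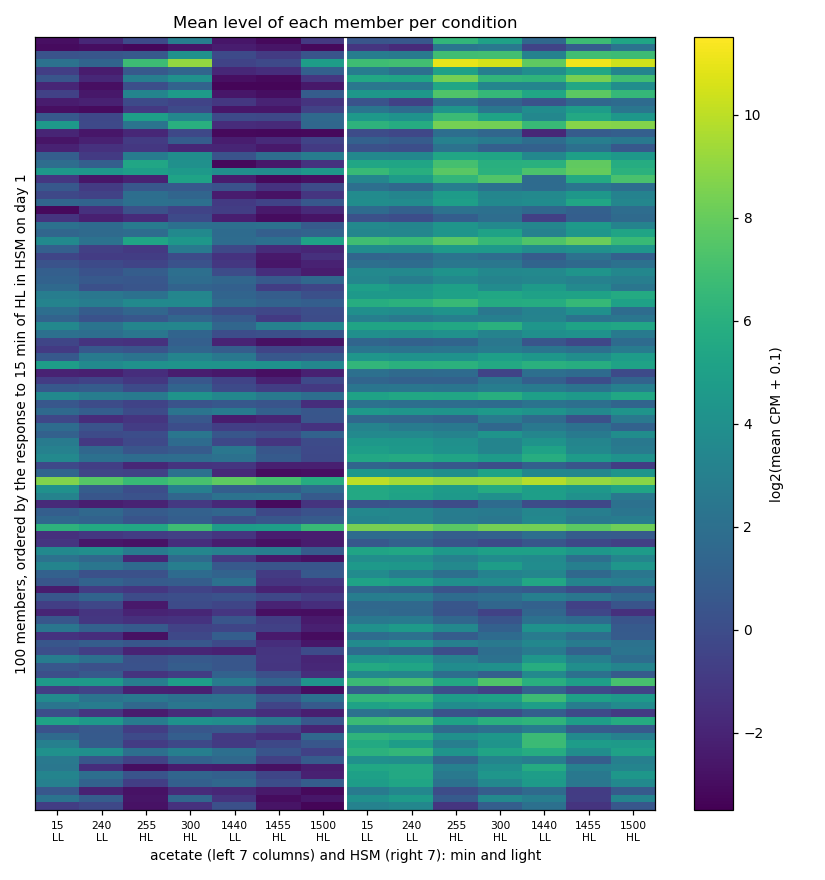
Mean level of each of the 100 members, as log2 of mean CPM plus 0.1, in the 14 conditions, with the 7 acetate conditions left of the 7 HSM conditions and the members ordered by their response to 15 min of HL on day 1 in HSM. The median member lies between 0.423 and 2.37 CPM in the acetate columns and between 7.74 and 12.5 CPM in the HSM columns.

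LCR1 was low with acetate in LL, came up in HL on day 1 and was close to absent with acetate on day 2. At 15 min it had 3.3, 4.73 and 2.62 CPM with acetate, against 44.5, 34.2 and 48.1 CPM in HSM. At 240 min it had 1.21, 1.63 and 2.67 CPM with acetate, against 18.9, 39.9 and 62.0 CPM in HSM. The groups did not overlap, and the HSM replicates at 240 min were the more scattered. After 15 min of HL, at 255 min, the values were 30.8, 56.5 and 38.1 CPM with acetate, against 133, 128 and 140 CPM in HSM. After 60 min of HL, at 300 min, they were 15.4, 14.7 and 18.3 CPM with acetate, against 73.3, 52.3 and 60.1 CPM in HSM. On day 1 the acetate libraries in HL at 255 min thus lay within the range of HSM in LL at 240 min, and those at 300 min below it. The lower end of that range, 18.9 CPM, was replicate 1, the HSM library that was low for some members. The other HSM replicates there, at 39.9 and 62.0 CPM, were above the 30.8 and 38.1 CPM with acetate at 255 min.

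At 1440 min in LL, LCR1 had 0, 0 and 0.0325 CPM with acetate, a single count in 3 libraries, against 57.0, 46.4 and 88.0 CPM in HSM. The ratio of HSM to acetate was 5649, with a 95% counting interval of 1013 to 223200. At 1455 min it had 0.0660, 0.117 and 0.0430 CPM with acetate, from 2, 3 and 1 counts, against 231, 229 and 219 CPM in HSM. At 1500 min it had 0.0366, 0.371 and 0.485 CPM with acetate, against 50.3, 57.9 and 56.0 CPM in HSM. No acetate library held more than 11 LCR1 counts in these 3 conditions, while the lowest HSM library stood at 46.4 CPM.

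All tests here are quasi-likelihood tests in edgeR, with p-values adjusted by the Benjamini-Hochberg method over all 13886 genes. The SE given with a log2 fold change is its absolute value divided by the square root of the test's F statistic. It rests on the fit to all 42 libraries and is not a spread of the libraries compared alone. HL raised LCR1 (Cre09.g399552) after 15 min on both days in HSM and on day 1 with acetate. With acetate on day 1 the log2 fold change, HL over LL, was 4.48 ± 0.34 after 15 min (SE, n = 3 each; adjusted p = 1.73e-13) and 3.11 ± 0.33 after 60 min (adjusted p = 7.06e-10). In HSM it was 1.73 ± 0.28 on day 1 (adjusted p = 1.6e-06) and 1.83 ± 0.28 on day 2 (adjusted p = 6.48e-07) after 15 min. After 60 min in HSM on day 1 it was 0.62 ± 0.28 (adjusted p = 0.0481), a call that was lost when any of 4 of the 6 libraries was left out, with 0.28 (adjusted p = 0.361) without LL replicate 1, 0.61 (adjusted p = 0.0946) without LL replicate 2, and 0.48 (adjusted p = 0.169) and 0.64 (adjusted p = 0.0719) without HL replicates 1 and 3. After 60 min on day 2 in HSM it was -0.22 ± 0.28 (adjusted p = 0.485). With acetate on day 2, 15 min of HL gave 2.32 ± 1.73 (adjusted p = 0.237), and the 21 counts at 1500 min against 1 at 1440 min gave 24.9-fold, with a 95% counting interval of 4.00 to 1029. In LL with acetate, LCR1 was lower at 1440 min than at 240 min, 1 count against 181, a 168.3-fold difference with a counting interval of 29.8 to 6685 (adjusted p = 4.23e-08), whereas in HSM the same comparison gave 0.66 ± 0.28 (adjusted p = 0.087).

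**Figure D3:**
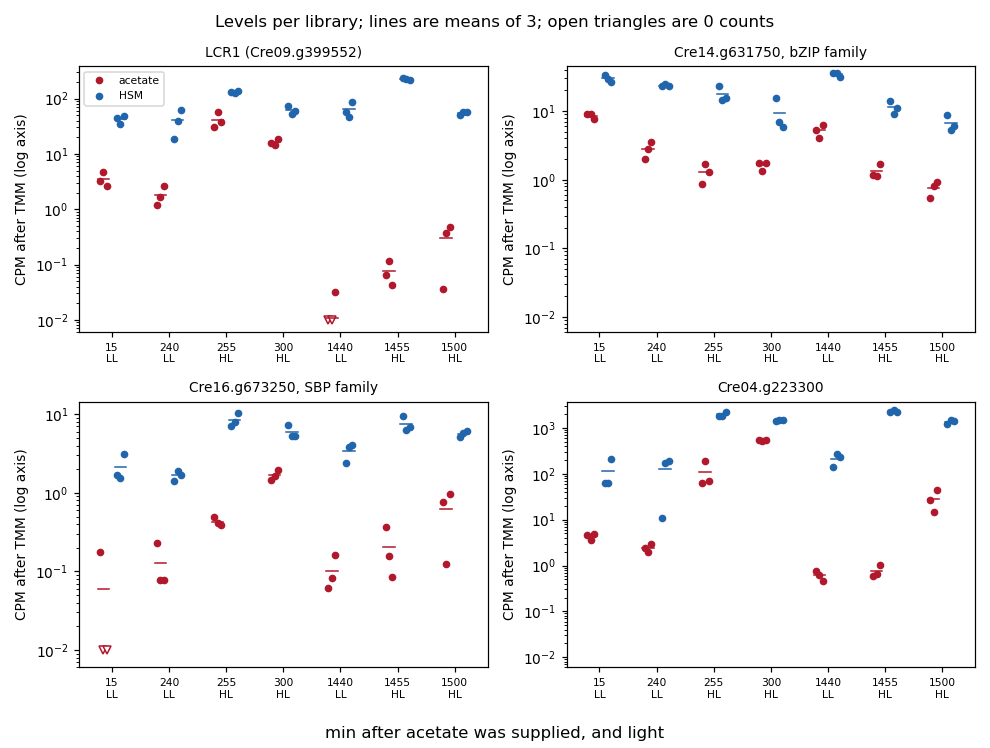
CPM on a log axis in each library, by time in min, of LCR1, the bZIP gene Cre14.g631750, the SBP gene Cre16.g673250 and Cre04.g223300, with acetate left of HSM at each time; open triangles mark libraries with 0 counts. LCR1 and Cre04.g223300 with acetate are far higher at 255 and 300 min than at 1440 and 1455 min, and Cre14.g631750 is lower in HL than in LL of the same medium on day 2.

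The bZIP gene Cre14.g631750 behaved in the opposite way to light: its transcript was lower in HL than in LL in both media. bZIP proteins are TFs that bind DNA as dimers through a leucine zipper. In LL it had 9.01, 8.95 and 7.72 CPM with acetate at 15 min, against 34.1, 29.2 and 26.8 CPM in HSM, and 1.99, 2.76 and 3.54 CPM with acetate at 240 min, against 23.3, 24.6 and 23.0 CPM in HSM. At 255 min it had 0.866, 1.71 and 1.29 CPM with acetate, against 23.4, 14.36 and 15.7 CPM in HSM. At 300 min it had 1.78, 1.33 and 1.77 CPM with acetate, against 15.3, 6.99 and 5.84 CPM in HSM. The HSM library of replicate 1 was the highest of its condition in both HL samples of day 1.

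On day 2 Cre14.g631750 started in LL, at 1440 min, from 5.39, 4.07 and 6.31 CPM with acetate, against 36.3, 36.4 and 31.3 CPM in HSM. At 1455 min it had 1.15, 1.13 and 1.72 CPM with acetate, against 13.8, 9.23 and 11.14 CPM in HSM. At 1500 min it had 0.550, 0.823 and 0.926 CPM with acetate, against 8.75, 5.37 and 6.03 CPM in HSM. Within each medium the HL and LL libraries of day 2 did not overlap. With acetate, the log2 fold change of HL over LL was -1.11 ± 0.31 after 15 min on day 1 (SE, n = 3 each; adjusted p = 0.00221, edgeR), -1.99 ± 0.30 after 15 min on day 2 (adjusted p = 5.39e-07) and -2.79 ± 0.34 after 60 min on day 2 (adjusted p = 2.74e-09). After 60 min on day 1 it was -0.77 ± 0.29 (adjusted p = 0.0252), which did not pass without LL replicate 3 (-0.53, adjusted p = 0.187) or HL replicate 2 (-0.65, adjusted p = 0.0985), nor with the culture number as a block (-0.67, adjusted p = 0.0508). In HSM it was -1.34 ± 0.24 after 60 min on day 1 (adjusted p = 1.38e-05), -1.60 ± 0.25 after 15 min on day 2 (adjusted p = 7.8e-07) and -2.36 ± 0.25 after 60 min on day 2 (adjusted p = 5.11e-10). After 15 min on day 1 in HSM it was -0.41 (adjusted p = 0.121), and -0.63 without HL replicate 1 (adjusted p = 0.0395). In LL with acetate it was higher at 1440 min than at 240 min by 0.92 ± 0.27 (adjusted p = 0.00478), while in HSM the difference was 0.55 (adjusted p = 0.0944).

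The SBP gene Cre16.g673250 was found at few counts and was higher in HL than in LL. SBP-domain proteins are plant-type TFs, one of which, CRR1, is the copper-response regulator of Chlamydomonas. In LL it had 0.177, 0 and 0 CPM with acetate at 15 min, against 1.68, 1.55 and 3.17 CPM in HSM, and 0.228, 0.0777 and 0.0786 CPM with acetate at 240 min, against 1.43, 1.91 and 1.71 CPM in HSM. At 255 min it had 0.491, 0.412 and 0.393 CPM with acetate, against 7.16, 7.98 and 10.3 CPM in HSM. At 300 min it had 1.47, 1.66 and 1.96 CPM with acetate, against 7.22, 5.3 and 5.31 CPM in HSM. With acetate, the values at 300 min were thus close to those of HSM cells in LL at 240 min.

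At 1440 min Cre16.g673250 had 0.0612, 0.0815 and 0.163 CPM with acetate, against 2.39, 3.88 and 4.08 CPM in HSM. At 1455 min it had 0.363, 0.157 and 0.0860 CPM with acetate, against 9.52, 6.37 and 6.88 CPM in HSM, and at 1500 min 0.769, 0.124 and 0.970 CPM with acetate, against 5.18, 5.72 and 6.14 CPM in HSM. The acetate libraries at 1455 min overlapped those at 1440 min, and in HSM they did not. In HSM the log2 fold change of HL over LL was 2.34 ± 0.31 and 1.82 ± 0.31 after 15 and 60 min on day 1 (SE, n = 3 each; adjusted p = 3.04e-08 and 4.28e-06, edgeR) and 1.17 ± 0.31 after 15 min on day 2 (adjusted p = 0.00094). After 60 min on day 2 it was 0.75 ± 0.30 (adjusted p = 0.0267), but 0.51 (adjusted p = 0.181) without LL replicate 1 and 0.69 (adjusted p = 0.07) without HL replicate 3. With acetate it was 3.70 ± 0.47 after 60 min on day 1 (adjusted p = 3.97e-08) and 2.54 ± 0.61 after 60 min on day 2 (adjusted p = 0.000324). After 15 min with acetate it was 1.73 ± 0.58 on day 1 (adjusted p = 0.0111), or 1.42 (adjusted p = 0.0671) without LL replicate 3, and 1.02 on day 2 (adjusted p = 0.223).

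Among the 10 lowest scores, several genes were at or near 0 in at least 1 acetate condition. Cre01.g025200 had the lowest score, -3.13. It had 2.06, 2.11 and 3.33 CPM with acetate at 15 min, against 17.8, 19.7 and 30.4 CPM in HSM, and at 300 min 4.54, 3.50 and 4.24 CPM with acetate, against 40.1, 33.8 and 35.4 CPM in HSM. At 1500 min it had 0.110, 0 and 0 CPM with acetate, against 18.7, 23.3 and 17.6 CPM in HSM. Its acetate level at 300 min was its highest in that medium, and 60 min of HL on day 1 raised it by 2.70 ± 0.36 in log2 with acetate (adjusted p = 1.1e-07, edgeR) and by 0.82 ± 0.26 in HSM (adjusted p = 0.00625; SE, n = 3 each).

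Cre10.g439450, Cre07.g334150, Cre09.g403250 and Cre06.g264100 were instead lower in HL than in LL in HSM in all 4 comparisons. Cre10.g439450 (score -3.10) had 1.1, 1.51 and 1.33 CPM with acetate at 1440 min, against 60.8, 57.4 and 51.5 CPM in HSM, and 0.220, 0.288 and 0.0441 CPM with acetate at 1500 min, against 9.35, 9.81 and 9.13 CPM in HSM. Cre07.g334150 (score -2.97) had 0.163, 0.427 and 0.131 CPM with acetate at 240 min, against 44.5, 54.1 and 43.9 CPM in HSM, and 0.0866, 0 and 0 CPM with acetate at 255 min, against 8.05, 7.82 and 8.57 CPM in HSM. In both genes every LL library without acetate lay above every HL library of either medium. In HSM on day 2, 60 min of HL gave log2 fold changes of -2.58 ± 0.23 for Cre10.g439450 (adjusted p = 1e-11), -2.46 ± 0.23 for Cre07.g334150 (adjusted p = 3.11e-11) and -2.51 ± 0.22 for Cre09.g403250 (adjusted p = 5.32e-12; SE, n = 3 each, edgeR).

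Cre09.g403250 (score -2.88) had 3.46, 3.26 and 5.56 CPM with acetate at 1440 min, against 40.04, 52.9 and 40.6 CPM in HSM, and 0.440, 0.494 and 0.176 CPM with acetate at 1500 min, against 7.59, 8.84 and 6.99 CPM in HSM. Cre06.g264100 (score -2.27) had 3.98, 4.2 and 4.72 CPM with acetate at 1440 min, against 113, 124 and 94.8 CPM in HSM. Cre14.g632350 (score -2.34) had 2.53, 1.76 and 2.57 CPM with acetate at 300 min, against 22.1, 9.43 and 7.72 CPM in HSM, with replicate 1 the highest of the HSM libraries. Cre17.g734725 (score -2.50) had 0.490, 0.367 and 0.423 CPM with acetate at 1440 min, against 54.7, 224 and 41.5 CPM in HSM. The high HSM value there is that of replicate 2, the library that stood apart.

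Cre02.g144734, Cre02.g112333 and Cre12.g555700, the remaining genes among the 10 lowest scores, were near 0 with acetate in LL at 240 and 1440 min. Cre02.g144734 (score -2.34) had 0.0326, 0 and 0.0262 CPM with acetate at 240 min, against 1.51, 4.26 and 3.89 CPM in HSM, and 0.851, 0.715 and 0.875 CPM with acetate at 300 min, against 8.95, 3.34 and 2.89 CPM in HSM. Cre02.g112333 (score -2.28) had 19.2, 15.6 and 16.2 CPM with acetate at 300 min, against 99.7, 68.7 and 81.3 CPM in HSM. At 1455 min it had 0, 0 and 0.0430 CPM with acetate, a single count, against 283, 388 and 347 CPM in HSM. In HSM Cre02.g112333 was higher after 15 min of HL than in LL, by 3.04 ± 0.46 on day 1 (adjusted p = 3.72e-07) and 2.16 ± 0.44 on day 2 (adjusted p = 5.28e-05; log2, SE, n = 3 each, edgeR).

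Cre12.g555700 (score -2.26) was widely scattered among the HSM libraries in LL. At 240 min it had 0.0652, 0.0777 and 0.0524 CPM with acetate, against 0.122, 24.1 and 53.9 CPM in HSM. At 300 min it had 39.5, 43.0 and 26.6 CPM with acetate, against 149, 176 and 192 CPM in HSM. At 1500 min it had 0.0366, 0.0412 and 0.0441 CPM with acetate, 1 count per library, against 138, 140 and 166 CPM in HSM. With acetate, then, it was abundant at 300 min and at the limit of detection after the same 60 min of HL on day 2, while in HSM the libraries of both days overlapped.

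A pair of members had acetate conditions without a single count. Cre02.g112366 had none with acetate at 1440 min, against 7.39, 14.25 and 8.60 CPM in HSM, which made it at least 295.5-fold lower when set against a floor of 3 counts over the 3 libraries. At 1455 min it again had none with acetate, against 38.0, 51.6 and 43.4 CPM in HSM, at least 1169-fold lower. On day 1 the same gene had 2.47, 2.32 and 2.27 CPM with acetate at 300 min, against 11.22, 8.53 and 10.08 CPM in HSM. Cre06.g274050 had no count with acetate at 1500 min, against 1.66, 1.13 and 1.29 CPM in HSM, at least 33.7-fold lower. Most members were thus not off with acetate but reduced, and only these 3 acetate conditions of a member held no count.

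Around the threshold the scores were close together. The last members were Cre08.g380700 with a score of -1.36, Cre13.g572550 with -1.35 and Cre02.g107150 with -1.34. The first genes left out were Cre07.g350976 with -1.34, Cre06.g250650 with -1.33 and Cre17.g732450 with -1.33.

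Some members lay beside each other on the chromosomes. In the order of genes in the RefSeq annotation, the gene directly before or after was also a member for 16 of the 100 members, in 8 pairs. Of the 13786 other tested genes, 155, or 1.12%, lay next to a member. The pairs included both of the lowest scores: Cre01.g025200 (-3.13) lay beside Cre01.g025150 (-1.70), and Cre10.g439450 (-3.10) beside Cre10.g439500 (-2.10). Chromosome 2 held 5 of the pairs, among them Cre02.g112333 (-2.28) with Cre02.g112366 (-2.03), and Cre02.g144734 (-2.34) with Cre02.g144700 (-1.53). It held 15 of the 100 members and 8.33% of the tested genes. Partners did not always respond alike to light: in HSM, Cre10.g439450 was lower in HL in all 4 comparisons and Cre10.g439500 higher in all 4. Whether paired genes are near-identical copies that share reads was not checked, so their values are uncertain to that extent. The members' median gene length was 4370.5 bases, with a range of 921 to 15252, beside 4652 bases over all tested genes.

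Cre10.g439500 shows the contrast with its neighbour. It had 17, 16.6 and 16.2 CPM with acetate at 300 min, against 148, 128 and 96.0 CPM in HSM, and 1.80, 0.782 and 1.1 CPM with acetate at 1500 min, against 118, 109 and 108 CPM in HSM. In LL at 1440 min it had 0.612, 0.937 and 0.911 CPM with acetate, against 8.17, 10.7 and 7.39 CPM in HSM. In HSM its HL libraries were all above its LL libraries, where the HL libraries of Cre10.g439450 were all below.

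A pair of members lay next to genes of the CCM list. Cre06.g271900 was the neighbour of Cre06.g271850, and Cre04.g223300 of Cre04.g223250, which is LCIE, a protein of the LCIB family. Neither member is itself on that list, and whether they take part in the CCM was not checked. Cre04.g223300 was another gene that HL raised in both media on day 1. In LL at 240 min it had 2.38, 1.98 and 2.94 CPM with acetate, against 10.9, 175 and 194 CPM in HSM, the low HSM value being that of replicate 1. At 255 min it had 62.6, 194 and 69.3 CPM with acetate, against 1827, 1839 and 2266 CPM in HSM. At 300 min it had 562, 520 and 538 CPM with acetate, against 1444, 1507 and 1500 CPM in HSM. At 300 min the acetate libraries were thus above every HSM library in LL.

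On day 2 Cre04.g223300 had 0.765, 0.611 and 0.455 CPM with acetate at 1440 min, against 144, 273 and 230 CPM in HSM. At 1455 min it had 0.594, 0.665 and 1.03 CPM with acetate, against 2258, 2458 and 2203 CPM in HSM, and at 1500 min 27.3, 14.7 and 44.1 CPM with acetate, against 1215, 1465 and 1412 CPM in HSM. With acetate, 15 min of HL thus left it at its LL level on day 2. The log2 fold change of HL over LL with acetate was 5.46 ± 0.63 after 15 min (SE, n = 3 each; adjusted p = 3.29e-09, edgeR) and 7.78 ± 0.69 after 60 min (adjusted p = 9.95e-12) on day 1. On day 2 it was 0.29 ± 0.86 after 15 min (adjusted p = 0.775) and 5.54 ± 0.69 after 60 min (adjusted p = 6.91e-09). In HSM it was 3.96 ± 0.56 and 3.55 ± 0.55 after 15 and 60 min on day 1, and 3.42 ± 0.55 and 2.66 ± 0.53 on day 2 (adjusted p between 1.16e-07 and 4.13e-05).

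Cre06.g271900, by contrast, was lower in HL than in LL in every one of the 8 comparisons. At 1440 min it had 3.52, 3.99 and 4.13 CPM with acetate, against 46.3, 77.0 and 39.999 CPM in HSM. At 1500 min it had 0.440, 0.906 and 0.309 CPM with acetate, against 32.7, 34.0 and 34.6 CPM in HSM. All HL libraries of a medium and day were below its LL libraries.

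Of the CCM genes outside the set, 12 are named here, each with its score and the time that set it, although some were above the threshold at further times. CAH5 and CAH4, mitochondrial carbonic anhydrases, came closest, with scores of -1.24 and -1.15, and LCIA, a chloroplast bicarbonate channel, had -0.97, all set by 300 min. LCID (-0.77), CCP2 (-0.62), the plasma membrane bicarbonate transporter HLA3 (-0.56) and the transporter LCI1 (-0.14) were also held back by 300 min, LCIE (-0.54) by 240 min and LCIC (-0.62) by 1500 min. CAH2, a periplasmic carbonic anhydrase that is known to be high under high CO2, had 0.72 at 300 min, LCIB 0.72 at 1500 min and Cre16.g662600 2.10 at 1500 min. LCI1 had 388, 361 and 469 CPM with acetate at 300 min, against 649, 374 and 362 CPM in HSM, so that the groups overlapped there. At 1440 min it had 0.0306, 0.244 and 0.130 CPM with acetate, against 261, 318 and 402 CPM in HSM.

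As a description of the list from which LCR1 came, the average of the 7 acetate differences was called lower by edgeR in 48 of its 70 tested genes outside the set, higher in 12 and neither in 10. Among all genes 44.2% were called lower and 40.8% higher. Scaled by library size alone, 37 were lower and 24 higher. The median of the 70 genes was -0.73, beside -0.05 over all genes. Of the 70, 18 were below 0 at all 7 times, beside 1962 of all 13886 genes. The time that kept the 70 out was 1500 min for 29 and 300 min for 17. Among all genes the highest of the 7 differences, for most genes an increase, was at 1500 min for 19.7% and at 300 min for 7.66%. The study compiled this list by hand as genes that may take part in the CCM, and its notes call some of them CO2 responsive. The largest decreases on average were those of LCI1 (-6.04 ± 0.17), LCIA (-5.85 ± 0.21), CAH4 (-5.37 ± 0.26) and HLA3 (-4.99 ± 0.16; log2, SE, n = 21 libraries per medium), all genes whose score was set by 300 min.

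In HSM, HL raised some members and lowered others, with more lowered than raised under TMM scaling, an order that scaling by library size alone turned round after 60 min on both days. After 15 min on day 1, 32 of the 100 members were higher in HL than in LL and 39 lower, by edgeR's quasi-likelihood test at an adjusted p threshold of 0.05, where 34.7% of all 13886 genes were higher and 35.1% lower. By 60 min on day 1, 34 were higher and 38 lower, beside 37% and 28.5% of all genes. With library size alone as the scaling, which moved the median of all genes in that comparison to 0.62, against 0.13 with TMM, 48 members were higher and 27 lower. The members' median log2 fold change was -0.22 after 15 min and -0.10 after 60 min, beside -0.03 and 0.13 over all genes.

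On day 2 in HSM, 31 members were higher and 48 lower after 15 min, beside 33% and 38.2% of all genes, with medians of -0.50 and -0.15. After 60 min, 27 were higher and 46 lower, beside 36.8% and 32.1%, with medians of -0.44 and 0.08. Here library size alone gave 45 higher and 23 lower, and a median of all genes of 0.93, so that the balance of direction among the members after 60 min depends on the scaling.

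Within this mixture single members moved strongly. Cre03.g204577 was the gene most raised in HSM: at 255 min it had 61, 65.2 and 117 CPM, against 0.163, 1.82 and 2.22 CPM in LL at 240 min, a log2 fold change of 5.85 ± 0.48 (SE, n = 3 each; adjusted p = 5.69e-13). On day 2 it had 106, 117 and 101.4 CPM at 1455 min, against 1.73, 2.44 and 3.95 CPM in LL at 1440 min, a change of 5.35 ± 0.47 (adjusted p = 3.19e-12). After 60 min it was still higher, by 4.61 ± 0.47 on day 1 (adjusted p = 2.08e-10) and 3.90 ± 0.46 on day 2 (adjusted p = 3.23e-09). Cre10.g426900 was raised by 4.48 ± 0.70 and 4.71 ± 0.69 after 15 and 60 min on day 1 (adjusted p = 7.69e-07 and 3.94e-07), though one HSM library at 255 min, replicate 3, stood at 11.9 CPM and the others at 1.60 and 1.37 CPM. Cre12.g555700 was raised on day 2, by 3.88 ± 1.01 after 15 min (adjusted p = 0.000906) and 5.51 ± 1.05 after 60 min (adjusted p = 2.15e-05).

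Others fell in HL in HSM, some of them for a short time. Cre09.g391650 had 0.651, 1.2 and 2.83 CPM in HSM at 255 min, against 18.0, 33.4 and 27.0 CPM in LL at 240 min, and 10.5, 13.7 and 10.23 CPM at 300 min. Its log2 fold change after 15 min was -4.00 ± 0.30 on day 1 (SE, n = 3 each; adjusted p = 3.37e-14) and -3.97 ± 0.40 on day 2 (adjusted p = 8.14e-11). Cre06.g274050 changed by -4.85 ± 0.39 on day 1 (adjusted p = 5.43e-13) and -3.52 ± 0.45 on day 2 (adjusted p = 2.54e-08) after 15 min. After 60 min the lowest were Cre17.g716750, at -3.63 ± 0.28 on day 1 (adjusted p = 3.47e-13) and -3.44 ± 0.29 on day 2 (adjusted p = 2.44e-12), Cre16.g679750, at -2.58 ± 0.38 on day 1 (adjusted p = 3.5e-07), and Cre17.g730550, at -3.71 ± 0.26 on day 2 (adjusted p = 2.37e-14).

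Cre17.g716750 and Cre17.g730550 differed in timing. In HSM Cre17.g716750 had 14.25, 17 and 14.5 CPM at 1455 min and 1.66, 1.60 and 1.48 CPM at 1500 min, against 15.5, 19.8 and 16.6 CPM in LL at 1440 min. Cre17.g730550 had 9.77, 14.24 and 14.26 CPM at 1455 min and 8.91, 8.18 and 7.1 CPM at 1500 min, against 114, 124 and 79.7 CPM in LL at 1440 min. On day 2 Cre17.g716750 was thus low in the later HL sample alone, and Cre17.g730550 in both.

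With acetate, the members' response to HL turned with the day and the minute. Set against the response in HSM, it is not independent of the rule, which used the acetate differences at the same times. On day 1, 24 were higher and 32 lower after 15 min, beside 30.9% and 27.7% of all genes, and the medians were -0.24 and 0.01. After 60 min on day 1, 49 were higher and 10 lower, beside 27.3% and 24.5% of all genes, and the members' median was 0.71, beside 0.04. On day 2 after 15 min, 2 were higher and 50 lower, beside 32.4% and 35.3%, with a members' median of -1.18, or -1.21 with genes at 0 counts set to their bound, beside -0.08. After 60 min on day 2, 23 were higher and 47 lower, beside 39.9% and 36.3%, with medians of -0.83 and 0.05. The 60 min counts on day 2 include many genes with few counts. A filter chosen after seeing the data kept the 51 members with at least 10 counts in at least 1 library of each condition. Of these, 13 were higher and 24 lower. The share of all genes under this filter was not computed. At most 3 counts in every library of both conditions were found for 1, 0, 6 and 2 members in these 4 comparisons.

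**Figure D4:**
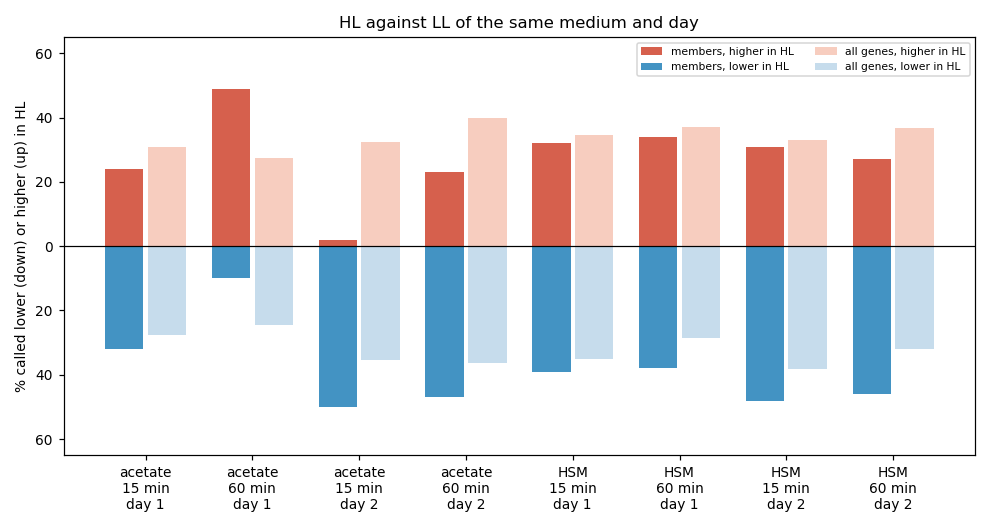
Percent of the 100 members and of all 13886 genes called higher (up) and lower (down) in HL than in LL, for 15 and 60 min of HL on days 1 and 2, with acetate left of HSM. With acetate 49 members are higher after 60 min on day 1 and 2 after 15 min on day 2, while in HSM 27 to 34 are higher in the 4 comparisons.

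The increase after 60 min of HL on day 1 with acetate included genes that had been almost undetected in LL. Cre12.g555700 had 39.5, 43.0 and 26.6 CPM at 300 min with acetate, against 2 counts in each LL library at 240 min, and was raised by 9.05 ± 1.54 in log2 (SE, n = 3 each; adjusted p = 6.68e-06). Cre11.g477350 had 5.57, 16.1 and 6.70 CPM at 255 min and 24.1, 23.8 and 27.9 CPM at 300 min, against 0.0652, 0 and 0.157 CPM in LL at 240 min. Its changes were 6.73 ± 0.74 after 15 min (adjusted p = 1.14e-09) and 8.15 ± 0.71 after 60 min (adjusted p = 7.3e-12). At 300 min in HSM Cre11.g477350 had 108, 81.6 and 77.3 CPM, so that the acetate cells were still below, without overlap.

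Few members fell after 60 min of HL on day 1 with acetate. The lowest were Cre16.g652250, with 0.103, 0.128 and 0.136 CPM in HL against 0.945, 0.699 and 0.236 CPM in LL (-2.26 ± 0.52, adjusted p = 0.000481), and Cre17.g716750 (-1.87 ± 0.34, adjusted p = 1.84e-05; log2, SE, n = 3 each). After 15 min on day 1 the lowest were Cre09.g391650 at -4.81 ± 0.54 (adjusted p = 2.32e-09) and Cre13.g591600 at -3.99 ± 0.33 (adjusted p = 1.2e-12). Cre13.g591600 had 0.144, 0.206 and 0.168 CPM with acetate at 255 min, against 2.12, 3.42 and 2.94 CPM in LL, and was back at 3.45, 2.73 and 3.23 CPM at 300 min. On day 2 Cre13.g591600 fell in both HL samples, by 2.39 ± 0.57 after 15 min (adjusted p = 0.000382) and 3.23 ± 0.66 after 60 min (adjusted p = 4.32e-05), with 1 count in each library at 1500 min.

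On day 2 the only members raised after 15 min of HL with acetate were Cre01.g025150, by 1.67 ± 0.24 (adjusted p = 2.52e-07), and Cre12.g492600, by 1.59 ± 0.35 (adjusted p = 0.000132; log2, SE, n = 3 each). Cre01.g025150 had 8.08, 8.45 and 8.81 CPM at 1455 min, against 3.03, 2.12 and 2.77 CPM in LL at 1440 min. Cre12.g492600 had 3.20, 3.21 and 4.08 CPM, against 1.68, 1.02 and 0.716 CPM in LL. These 2 genes were also the only ones raised by HL in all 4 acetate comparisons, a pattern that 1406 of the 13886 genes showed.

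The largest decreases on day 2 with acetate were those of Cre11.g467800 and Cre06.g274050. Cre11.g467800 had 0.132, 0.0391 and 0.0860 CPM at 1455 min, against 1.41, 1.55 and 2.70 CPM in LL, a log2 fold change of -4.35 ± 0.52 (SE, n = 3 each; adjusted p = 3.33e-09). At 1500 min it had 2 counts over the 3 libraries, against 167 in LL, a ratio of 70.5 with a 95% counting interval of 19.2 to 586.8. Cre06.g274050 fell by 4.24 ± 0.63 after 15 min (adjusted p = 4.52e-07) and had no count at 1500 min, at least 25.8-fold lower than in LL. After 60 min the highest were Cre04.g223300, described above, and Cre11.g477350, at 4.57 ± 0.94 (adjusted p = 5.04e-05), with 1.69, 1.11 and 2.43 CPM in HL against 0.0612, 0.0815 and 0.0651 CPM in LL.

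Grouped by their behaviour in HSM, 13 members were higher in HL in all 4 HSM comparisons, beside 16.4% of all genes, and 21 were lower in all 4, beside 13.1%. With acetate, 2 were higher in all 4, and 7 were lower in all 4, beside 5.7% of all genes. The 13 raised in HSM were Cre03.g204577, Cre10.g439500, Cre11.g477350, the SBP gene Cre16.g673250, Cre10.g443450, Cre08.g358459, Cre04.g215900, Cre12.g554100, Cre04.g223300, Cre09.g411975, Cre10.g426900, Cre12.g492600 and Cre11.g469650. The 7 lowered with acetate were Cre06.g271900, the bZIP gene Cre14.g631750, Cre02.g143347, Cre14.g627500, Cre16.g652250, Cre06.g274050 and Cre02.g105000.

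Most of the 13 members raised by HL in HSM were also raised with acetate after 60 min on day 1, but 1 of them after 15 min on day 2. With acetate on day 1, 9 of the 13 were higher and 0 lower after 15 min, and 12 were higher and 0 lower after 60 min, with a median of 3.70. Among the 2281 genes of the whole table that HL raised in all 4 HSM comparisons, 82.1% and 64% were higher with acetate in these samples. On day 2 after 15 min, 1 of the 13 was higher and 1 lower, with a median of -0.71, beside 71.8% higher and 8.07% lower among the 2281 genes. At 60 min on day 2, 6 were higher and 0 lower, beside 79.3% and 5.48%. The 21 members lowered by HL in HSM were lower with acetate in 15 cases after 15 min on day 1 and again in 15 after 15 min on day 2, and in 7 and 16 cases after 60 min. Among the 1820 genes lowered in all 4 HSM comparisons, 67.9% and 68.2% were lower after 15 min and 51.9% and 74.8% after 60 min. Of the 66 members in neither group, 35 were higher and 3 lower with acetate after 60 min on day 1, and 15 were higher and 31 lower on day 2. Among the 9785 genes of the whole table in neither group, 22.6% were higher and 24.4% lower on day 1, and 36.4% and 36.3% on day 2. The rule chose the members by acetate minus HSM at these same times. Their acetate response, grouped by the response in HSM, is therefore not independent of the choice, and the genes of the whole table were not chosen alike. These counts describe the groups, and the difference between the days was tested gene by gene as follows.

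The difference between the days was tested as the HL response of day 2 minus that of day 1, an analysis chosen after seeing the data. With acetate after 60 min, 59 members had a lower response on day 2 and 10 a higher one, beside 28.8% and 34.5% of all genes, with a members' median of -1.91, beside 0.07. Scaled by library size alone, which moved the median of all genes to -0.74, 69 were lower and 3 higher. Of the 50 members with at least 10 counts in at least 1 library of each condition, 34 were lower and 8 higher. The share of all genes under this filter was not computed. With acetate after 15 min, 32 were lower and 4 higher, beside 18.3% and 18.1%, with medians of -0.91 and -0.00. In HSM fewer members were called, as was so among all genes. After 15 min 10 were lower and 0 higher, beside 6.8% and 4.41% of all genes. After 60 min 11 were lower and 1 higher, beside 3.67% and 2.4%. How the effect of the day differs between the media is a combination of acetate differences that the rule used, so it is not independent of the choice of members. With library size alone, the HSM counts were 4 lower and 0 higher after 15 min, and 2 lower and 4 higher after 60 min.

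**Figure D5:**
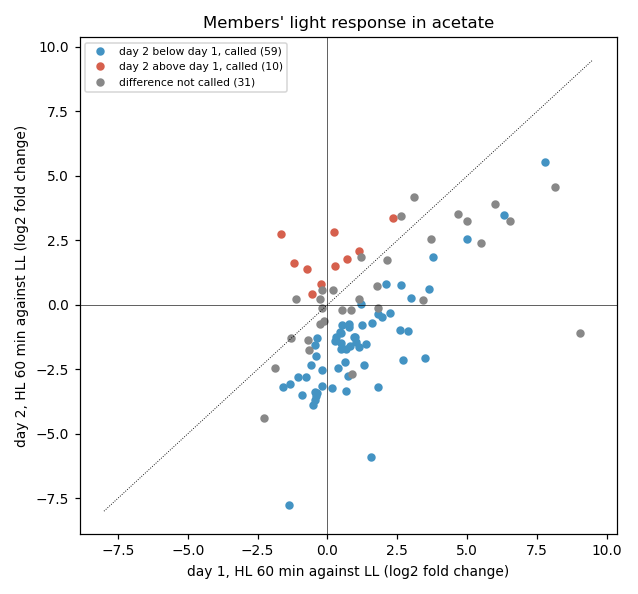
Log2 fold change of 60 min of HL over LL with acetate on day 2 (vertical) and on day 1 (horizontal) for the 100 members, with the line of equal response. On day 2 the response was lower for 59 members and higher for 10, by the test of the difference, and 31 were not called.

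Among the called members, the lowest difference with acetate after 60 min was that of Cre11.g467800, -7.46 ± 0.81 (SE; adjusted p = 8.39e-10): it had 0.644, 0.842 and 0.700 CPM at 300 min, against 0.358, 0.1554 and 0.210 CPM in LL at 240 min, and was almost undetected at 1500 min. Cre06.g274050 followed with -6.39 ± 1.37 (adjusted p = 0.000147), a value that rests on 0 counts at 1500 min. After 15 min the lowest were Cre11.g477350, at -8.01 ± 2.74 (adjusted p = 0.0208), and Cre04.g215900, at -5.41 ± 0.63 (adjusted p = 3.06e-08). Cre04.g215900 had 23.1, 44.6 and 26.7 CPM with acetate at 255 min and 0.792, 0.861 and 0.602 CPM at 1455 min. Cre11.g477350 had at most 2 counts in each library of both conditions of day 2, and its call was lost without any of the 3 LL libraries of 1440 min (adjusted p = 0.055, 0.0543 and 0.0565 without replicates 1, 2 and 3). For Cre04.g223300 the difference was -5.17 ± 1.07 after 15 min (adjusted p = 0.000234) and -2.24 ± 0.94 after 60 min (adjusted p = 0.0362), and for the bZIP gene Cre14.g631750 it was -2.02 ± 0.45 after 60 min (adjusted p = 0.000212).

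Some members went the other way on day 2 with acetate. Cre15.g641674 had a difference of 4.41 ± 1.12 after 60 min (SE; adjusted p = 0.000917), with 1.21, 0.906 and 0.485 CPM at 1500 min, against 0.153, 0.204 and 0.0325 CPM in LL. Cre17.g734725 had 2.79 ± 0.94 (adjusted p = 0.00971), with 1.36, 1.24 and 1.37 CPM at 1500 min, against 0.490, 0.367 and 0.423 CPM in LL. After 15 min the same genes had 3.17 ± 1.25 (adjusted p = 0.0444) and 2.61 ± 1.04 (adjusted p = 0.0461). These 15 min calls were lost when culture numbers, taken from sample titles, entered the fit (adjusted p = 0.0694 for Cre15.g641674 and 0.0685 for Cre17.g734725), under limma-voom (adjusted p = 0.1 and 0.231) and when single libraries were left out, with adjusted p up to 0.109 for Cre15.g641674 (without LL replicate 3 of 1440 min) and 0.182 for Cre17.g734725 (without HL replicate 2 of 1455 min).

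In HSM the differences between the days were smaller. After 15 min the lowest were Cre14.g632350, at -1.73 ± 0.39 (SE; adjusted p = 0.00388), and Cre02.g144734, at -1.60 ± 0.44 (adjusted p = 0.0159), or -1.26 (adjusted p = 0.0521) without LL replicate 1 of 240 min. After 60 min they were Cre17.g730550, at -2.18 ± 0.34 (adjusted p = 0.000154), and Cre02.g144734, at -2.06 ± 0.46 (adjusted p = 0.00597), or -1.36 (adjusted p = 0.0556) without HL replicate 1 of 300 min. Cre09.g391650 was the only member with a higher response on day 2 in HSM, by 1.54 ± 0.35 after 60 min (adjusted p = 0.0079). The bZIP gene Cre14.g631750 had -1.19 ± 0.34 after 15 min (adjusted p = 0.0222), which did not pass without HL replicate 1 of 255 min (-0.97, adjusted p = 0.0777) or HL replicate 2 of 1455 min (-1.06, adjusted p = 0.0733). Leaving out single libraries moved the count of 10 after 15 min to 6 (without LL replicate 3 of 240 min, or HL replicate 2 of 1455 min), and the count of 12 after 60 min to 6 (without HL replicate 1 of 300 min).

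In continued LL the members changed less. Between 240 and 1440 min with acetate, 15 were higher and 30 lower at the later time, beside 23.3% and 28.8% of all genes, with medians of -0.09 and -0.07. In HSM 9 were higher and 18 lower, beside 12.6% and 7.86%, with a median of 0.02 in both. Scaled by library size alone, the HSM counts were 4 higher and 39 lower, with a median of all genes of -0.40, and a fit to the 6 libraries compared gave 4 and 10. With acetate, Cre11.g467800 had 1.41, 1.55 and 2.70 CPM at 1440 min, against 0.358, 0.1554 and 0.210 CPM at 240 min (2.94 ± 0.41, adjusted p = 3.82e-07), and Cre13.g563400 had 6.61, 4.44 and 8.43 CPM, against 1.40, 1.75 and 2.54 CPM (1.76 ± 0.28, adjusted p = 3.34e-06; log2, SE, n = 3 each). Besides LCR1, Cre13.g591600 was lowest, at -2.74 ± 0.29 (adjusted p = 1.52e-09).

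In HSM in LL, the neighbours Cre02.g144734 and Cre02.g144700 were highest at 1440 relative to 240 min, by 2.06 ± 0.33 (adjusted p = 1.85e-05) and 1.89 ± 0.33 (adjusted p = 5.97e-05; log2, SE, n = 3 each). Cre09.g411975 was lower by -2.0 ± 0.50 (adjusted p = 0.00357), with 0.206, 0.271 and 0.0637 CPM at 1440 min, against 0.733, 0.533 and 0.874 CPM at 240 min. Cre12.g555700 had -3.01 ± 0.99 (adjusted p = 0.0273), which was lost without LL replicate 3 of 240 min (-1.89, adjusted p = 0.23), or replicate 1 (-2.68, adjusted p = 0.102) or 2 (-2.88, adjusted p = 0.0744) of 1440 min. The SBP gene Cre16.g673250 had 1.00 ± 0.33 (adjusted p = 0.0276), which was lost without replicate 1 (0.90, adjusted p = 0.0887) or 3 (1.02, adjusted p = 0.0675) of 240 min, or replicate 2 (0.89, adjusted p = 0.0828) or 3 (0.83, adjusted p = 0.132) of 1440 min. LCR1 (Cre09.g399552) in HSM had 0.66 with all libraries, and passed without replicate 3 of 240 min (1.12, adjusted p = 0.00742) or replicate 2 of 1440 min (0.83, adjusted p = 0.048).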

How the data were processed

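The 42 libraries were TruSeq stranded mRNA libraries. Per the labels and the study's methods, the authors trimmed reads with BBduk, aligned them with STAR 2.5.3 to Phytozome assembly version 5 and counted reads with HTSeq-count in reverse-stranded mode, which gave the deposited raw counts. The deposited counts held no line without a gene name. Genes with at least 1 CPM in 9 or more libraries were kept, 13886 of 17741. All 14 conditions were fitted together in edgeR 4.0.16 (R 4.3.3; TMM, quasi-likelihood test, Benjamini-Hochberg over all kept genes, threshold 0.05) with 1 coefficient per condition and no block. The script was tested on simulated data. Alternatives used RLE, library size only, DESeq2 1.42.0, limma-voom 3.58.1, other filters, prior counts and times, blocks, and each library left out in turn.

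The members and lists were chosen with earlier results of these data known. Genes were named if they were members in a list of the study, had 1 of the 10 lowest scores or 1 of the 3 scores on either side of the threshold, or were among the 2 highest or 2 lowest called members of a light or time comparison, as were 12 CCM genes outside the set. Neighbours, members without overlap and members raised or lowered throughout were named after their values were seen. Lists built on product names could not be used, since the tables used here held none. Gene order and length came from RefSeq (assembly Chlamydomonas_reinhardtii_v5.5), which matched 17738 identifiers. Intervals on counts cover counting error only and are exact binomial ones. The chi-square per degree of freedom between replicates of a condition ranged between 5.76 and 135.4, so no library was a copy of another of its condition. Libraries of different conditions were not compared in this way.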

Additional observations from a re-analysis of the deposited data

Results flagged for a closer look

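The HL response differed between the days, by the test described in the report, for 69 of the 100 members with acetate after 60 min. After 15 min with acetate it differed for 36. Over all 13886 genes it differed for 8785 after 60 min and 5059 after 15 min with acetate, so the members' totals were close to the share of all genes. The members differed in direction: after 60 min 59 were lower on day 2 and 10 higher, beside 28.8% and 34.5% of all genes. In HSM it differed for 12 members after 60 min and for 10 after 15 min, beside 843 and 1556 of all genes. The count after 15 min was close to the share of all genes. Among the TFs, the bZIP gene Cre14.g631750 had a lower response on day 2 than on day 1 with acetate after 60 min, by -2.02 in log2, and in HSM after 15 min, by -1.19. The bZIP difference in HSM did not pass under library size alone or when either of 2 HL libraries was left out. Whether the days differed in these cultures in anything other than the time since acetate was supplied was not tested.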

How the results depend on the processing

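The counts of members were recomputed in 357 alternatives of 16 results, of which 342 stayed within 1.5 times the value reported. The rule returned 60 of the same members without the time 15 min and 63 without 300 min, and between 82 and 100 when a replicate or a library was left out. For the LL comparison in HSM, 27 members passed, against 12 with a log2 fold change of at least 1, 43 with library size only and 14 with only the libraries compared. For day 2 minus day 1 in HSM the count after 15 min was 4 with library size only and 4 with only the libraries compared, and after 60 min it was 6 with library size only. Members were also restricted to those with 10 counts in at least 1 library of each condition. That gave 37 for acetate after 60 min on day 2, and 23 and 42 for day 2 minus day 1 with acetate after 15 and 60 min. Of the CCM list, 28 genes outside the set were lower by at least 1 in log2. In these cases the cause was not tested, other than that the stricter settings keep fewer genes.

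With single libraries left out, the counts ranged as follows. In HSM they were 68 to 73 and 62 to 72 after 15 and 60 min on day 1, and 71 to 75 and 67 to 70 on day 2. With acetate they were 49 to 53, 53 to 63, 47 to 53 and 63 to 68. For LL they were 19 to 27 in HSM and 40 to 44 with acetate. For day 2 minus day 1 they were 6 to 12 and 6 to 15 in HSM, and 24 to 35 and 62 to 68 with acetate, and for the CCM list 46 to 49.

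Replicate numbers are shared across conditions, but the labels do not say what they mark, and 9 of 30 correlations between same-numbered libraries were over 0.1 (range -0.169 to 0.393), all 3 of them only for HL against LL in HSM after 60 min on day 2. With the replicate number as a block, the counts were 73, 73, 79 and 73 in HSM, 58, 58, 52 and 70 with acetate, 29 and 48 in LL, and 12, 11, 37 and 70 between the days. Of 22 correlations between libraries that share a culture number in their titles, 9 were over 0.1 (range -0.231 to 0.393), and with that number as a block the counts in the same order were 74, 73, 79 and 74, 56, 59, 53 and 69, 28 and 44, and 13, 11, 35 and 70. Single genes were checked in 94 pairs of gene and comparison. These were the 3 TF members throughout, and the 2 highest and 2 lowest called members of each comparison. Among them 1392 of 1466 alternatives kept the call, 61 lost it and 13 gained it, and none changed direction. Other results of named genes were not checked in this way. Low counts with acetate on day 2 limit what could be detected there.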
